A study of Mus musculus with 6 samples.

Results

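The genes of RNA polymerase II and its general transcription factors were examined in haematopoietic stem and progenitor cells (HSPCs) of control and Med12-deficient mice. They were chosen by symbol: the Polr2 subunits, TFIIA, TFIIB, TFIIE, TFIIF and TFIIH genes, the numbered Taf genes and Tbp. The rule took probe sets, the groups of short oligonucleotides that read 1 transcript on the array, to which the platform annotation gives exactly 1 symbol. It found 77 of 45037 probe sets, which read 47 of 18193 genes. Of these genes 28 had 1 probe set and 19 had several, up to 7 for Taf1d. Each gene is represented below by its probe set of highest mean signal unless another is named. In the RefSeq table, 52 symbols match the pattern. Polr2k, Polr2l, Taf9, Gtf2h2 and the pseudogene Taf9-ps had no probe set of their own symbol alone and were not analysed here. Another 5 probe sets that list a matching symbol beside a different one were left out by the rule.

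Each group had 3 arrays, named here by group and replicate number. The cells were bone marrow progenitors without lineage markers and with c-Kit and Sca1 on their surface, sorted from mice of a B6/129 background. The knockout mice carried Med12Flox and MxCre: loxP-flanked Med12 and a Cre recombinase driven by the interferon-responsive Mx promoter, which also acts in cells outside the blood lineage. Controls and knockouts were sampled at 4 days from injection of pI:pC, a double-stranded RNA that triggers interferon and so the Cre. The genotype of the controls is not given in the sources used here, nor whether they carried Cre. Nothing in the labels says that the arrays of a group came from separate animals, so the p-values reflect the spread among arrays, which may be technical.

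RNA polymerase II makes the messenger RNA of protein-coding genes, but it does not find their promoters on its own. TFIID, made of the TATA-binding protein and its associated factors (TAFs), settles on the core promoter. TFIIA and TFIIB steady it there, TFIIF escorts the polymerase, and TFIIE and TFIIH then open the DNA and phosphorylate the polymerase tail. Mediator bridges this assembly to the factors bound at enhancers. Med12 belongs to the detachable kinase module of Mediator, whose presence on the complex hinders its contact with the polymerase.

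In these data TFIIB, both TFIIE subunits, the TFIIH subunits Gtf2h1 and Gtf2h5, the larger TFIIF subunit and several small polymerase and TFIID subunits had higher signal in every Med12 knockout array than in any control. The catalytic polymerase subunits Polr2a and Polr2b, Tbp and Taf1 had overlapping groups, at log2 differences of -0.21 to -0.04. No member passed limma's test over all probe sets (0 of 77 probe sets at an adjusted p of 0.05, against 0.762% of all; 0 of 47 genes, against 0.989%). The log2 difference was positive for 30 of the 47 genes (63.8%, against 42.2% of all genes). For 15 of the 47 (31.9%) all 3 knockout signals lay above all 3 control signals, against 9.85% of all genes. Only 1 of the 47, Taf1b, lay wholly below, against 13.6% of all genes. An unadjusted p under 0.05 was reached by 14 members, all higher in knockouts (29.8%, against 7.84% of all genes), and by 0 that were lower (against 10.3%). A plain equal-variance test likewise passed 0 members after adjustment and gave 13 an unadjusted p under 0.05 with higher signal. The count of 14 depended on the setting: it was 7 with an offset of 1, 9 and 8 without the dimmest 25% and the dimmer 50% of probe sets, 20 after median centring, 9 without knockout replicate 1 or 2 and 10 without any other single array. Without control replicate 3, 1 member was lower at that p. Most of the members are well expressed, and bright genes as a whole were higher more often. Of the 40 members with a mean signal of 100 or more, 27 had a positive difference, against 55.5% of the 7878 genes that bright. Of the same 40, 15 lay wholly above the controls (37.5%), against 17.9%, and 14 reached the unadjusted p with higher signal (35.0%), against 14.7%. In bulk samples, fewer cells of a type and less RNA per cell cannot be told apart.

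The median log2 difference, knockout minus control, over the 47 genes was 0.29, and that over all genes was -0.05. Among genes with a mean signal of 100 or more it was 0.31 for members and 0.06 for all. These differences are on the log2(signal + 16) scale, which understates changes of dim genes. Measured from each gene's own mean over the 6 arrays, the median deviation of members was -0.11, -0.18 and -0.12 in controls 1, 2 and 3 and 0.15, 0.072 and 0.11 in knockouts 1, 2 and 3. Every knockout array stood above every control array in this median. The array with the highest signal was a knockout for 32 of the 47 members (68.1%), against 40.9% of all genes and 52.1% of genes with a mean signal of 100 or more. Without knockout replicate 3 the median over members was 0.13, and without control replicate 3 it was 0.20. After centring each array on its median, which moved the median of all genes to 0.22, the median over members was 0.56 and 46 of the 47 had a positive difference. Then 19 members lay wholly above the controls, against 27.6% of all genes.

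**Figure D1:**
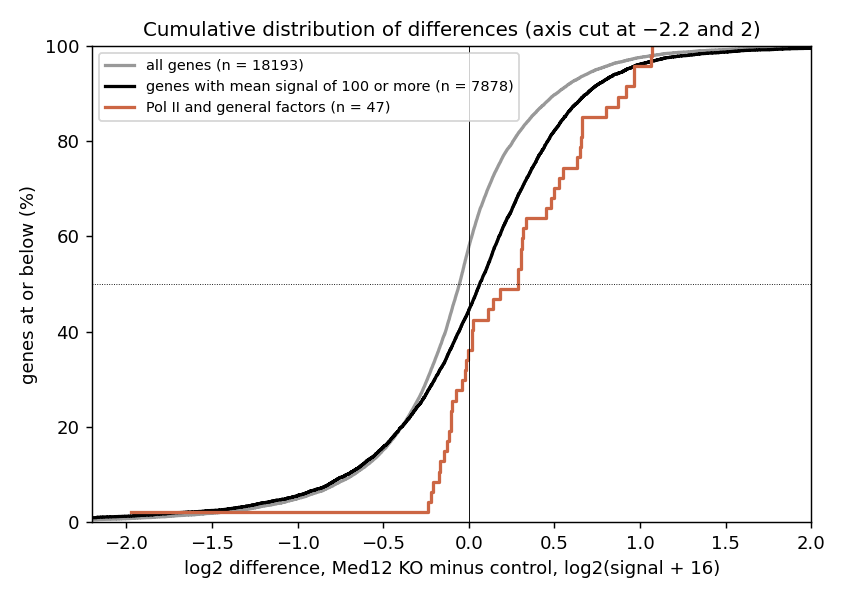
Cumulative share of genes (vertical axis, %) by log2 difference between Med12 knockout and control HSPCs (horizontal axis, log2(signal + 16)), for all 18193 genes, for the 7878 with a mean signal of 100 or more, and for the 47 genes of RNA polymerase II and the general factors. The line of the 47 genes crosses 50% at 0.29, to the right of the brighter genes at 0.06 and of all genes at -0.05.

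Several features of the samples moved together with these differences, and their part in the results was not tested. Med12 was read by 1 probe set, with signals of 278.6, 837.4 and 441.6 in controls and 86.4 to 100.4 in knockouts (log2 -2.17; limma adjusted p = 0.0796). The place of that probe set relative to the deleted part is not known here. All 14 mitotic genes had higher log2 signal in knockouts (against 42.2% of all genes), with Cdk1 at 1.10, Cdc20 at 0.88 and Plk1 at 0.85. Of them 9 lay wholly above the controls (against 9.85% of all genes, or 17.9% of the brighter ones) and 0 passed the adjusted threshold. The summed signal of 15 erythroid genes was 4650 to 5438.9 on control arrays and 10875.7 to 16190 on knockout arrays. Among the 15, 14 were higher, including Hba-a1, which was under 16 on every array, and 12 lay wholly above the controls (against 9.85% of all genes). Slc4a1 lay wholly below them (log2 -1.60). All 8 megakaryocyte genes had a positive log2 difference, but only 3 lay wholly above the controls (against 9.85% of all genes). Gp6 was under 16 on every array, and the brightest, Pf4, overlapped at 2344.9 to 3552.8 and 2976.8 to 3679.2. The summed signal of the 8 ran from 3354.6 to 4834.5 and from 5396 to 7166. That of 9 granulocyte-monocyte progenitor genes, all lower, ran from 9481.5 to 17452.9 and from 858.6 to 1970.5, and that of 9 early lymphoid genes, all lower, from 4374.9 to 5462.3 and from 183.7 to 344.9. Of the genes of the sorting gate, Kit lay at 805.2 to 1425.4 on control and 514.8 to 617.5 on knockout arrays (log2 -0.89, limma adjusted p = 0.152). Its second probe set, at 338.2 to 476.4 and 138.2 to 170.8, passed the threshold (log2 -1.27, limma adjusted p = 0.0479). Ly6a (Sca1) was not analysed here. Kit and the progenitor surface genes Cd34, Cd48, Slamf1, Procr and Cd27 summed to 5875.8 to 8461.5 on control and 2437.4 to 3373.8 on knockout arrays, with all but Slamf1 (log2 0.49) lower. The 5 matched lineage genes summed to 104.5 to 183.4 and 49.7 to 118.7, with Ms4a1 under 16 on every array. Of the markers of other cells, 5 of 6 B-cell, 5 of 7 T and NK-cell and 7 of 8 neutrophil genes were lower. So were 7 of 7 macrophage and 6 of 7 endothelial genes, while 5 of 6 mast-cell and 3 of 5 stromal genes were higher. Of all 18193 genes, 10515 were lower. Wholly below the controls lay 3 B-cell, 2 T and NK-cell, 3 neutrophil, 4 macrophage and 2 endothelial genes (against 13.6% of all genes). Wholly above lay 4 mast-cell, 1 endothelial and 1 stromal gene. Among these markers Ms4a1, Cd3g, Ncr1, Mmp8, C1qc, Adgre1, Cdh5 and Pdgfra were under 16 on every array. Signals under 16 made up 41.6% to 42.3% of probe sets in controls and 45.5% to 49.5% in knockouts, and the 3′ to 5′ ratios of the Gapdh control probe sets were 1.38 to 1.52 and 1.39 to 1.77.

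The DNA just upstream of a few of these genes is given to show which core promoter letters they carry. Gtf2b, Gtf2h5 and Gtf2f1, with separated groups, are shown beside a pair whose groups overlapped (Polr2a and Tbp). Each run gives the 250 bases before the RefSeq start site (assembly GRCm38.p6), 5′ to 3′ on the gene's strand. Capitals mark matches, on either strand, to the TATA box TATAAA, the CCAAT box, the GC box GGGCGG, the ETS-type core CCGGAAG, the E-box CACGTG or the YY1-type site CCGCCAT. Gtf2h5 has a further RefSeq start, and the window of the more upstream one is shown.
Gtf2b (chr3:142764997-142765246, plus strand): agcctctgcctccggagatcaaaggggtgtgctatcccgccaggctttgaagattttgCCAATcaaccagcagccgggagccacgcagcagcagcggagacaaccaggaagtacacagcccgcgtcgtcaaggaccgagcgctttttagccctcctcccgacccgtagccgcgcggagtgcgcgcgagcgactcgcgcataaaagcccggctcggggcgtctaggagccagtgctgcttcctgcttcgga
Gtf2h5 (chr17:6079578-6079827, plus strand): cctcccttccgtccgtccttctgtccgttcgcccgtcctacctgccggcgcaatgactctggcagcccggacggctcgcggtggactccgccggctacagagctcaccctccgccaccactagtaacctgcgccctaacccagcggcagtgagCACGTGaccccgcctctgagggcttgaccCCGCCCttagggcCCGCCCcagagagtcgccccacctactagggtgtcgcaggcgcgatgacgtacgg
Gtf2f1 (chr17:57011289-57011538, minus strand): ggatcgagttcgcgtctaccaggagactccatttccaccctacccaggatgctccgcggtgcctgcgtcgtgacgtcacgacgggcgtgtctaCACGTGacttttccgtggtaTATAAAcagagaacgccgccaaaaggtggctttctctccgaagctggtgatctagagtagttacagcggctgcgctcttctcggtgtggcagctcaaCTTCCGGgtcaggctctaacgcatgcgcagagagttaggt
Polr2a (chr11:69758634-69758883, minus strand): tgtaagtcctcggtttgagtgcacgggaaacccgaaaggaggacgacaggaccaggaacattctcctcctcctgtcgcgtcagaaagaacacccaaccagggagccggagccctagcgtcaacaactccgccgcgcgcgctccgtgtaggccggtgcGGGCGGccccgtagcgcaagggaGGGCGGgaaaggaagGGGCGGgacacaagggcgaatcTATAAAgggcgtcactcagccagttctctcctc
Tbp (chr17:15499638-15499887, plus strand): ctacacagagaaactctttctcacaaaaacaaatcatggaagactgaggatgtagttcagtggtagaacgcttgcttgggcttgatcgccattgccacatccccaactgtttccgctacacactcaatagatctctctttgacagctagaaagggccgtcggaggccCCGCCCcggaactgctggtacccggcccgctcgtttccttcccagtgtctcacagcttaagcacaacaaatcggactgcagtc

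Windows of this kind were at hand for 41 of the 47 members, 51 windows in all. The TATA box, the element that TBP itself binds, stood 33 bases before the start of Polr2a and 32 bases before that of Taf13, on the sense strand of both. That of Gtf2f1 lay 137 bases upstream. TATAAA was found in 17.6% of member windows and in 12.4% of all 32851 windows. CCAAT was found in 33.3% and 33.8%, the GC box in 54.9% and 32.7%, CCGGAAG in 23.5% and 6.91%, CACGTG in 19.6% and 6.02%, and CCGCCAT in 3.92% and 2.21%. None of these motifs contains another, and a match is only a match of letters. The 32851 windows come from 27025 genes whatever their signal, and shares over bright genes alone were not taken. Windows of the same gene can overlap, as in Gtf2h5 and Taf1a, so a site can count more than once. Of the 12 genes with a window and wholly higher signal in knockouts, 7 held the GC box, 5 CCGGAAG, 4 CCAAT, 4 CACGTG, 2 TATAAA and 1 CCGCCAT. Of the other 29, these were held by 18, 6, 11, 5, 7 and 1. The median content of G and C was 63.2% in windows of those 12 genes, 54.4% in windows of the other 29 and 52.4% over all windows.

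TFIIB and TFIIE, which place the polymerase on the promoter and recruit TFIIH, had higher signal in all knockout arrays, at log2 differences of 0.87 to 1.07. Gtf2b, the single gene of TFIIB, had signals of 409.9, 392.1 and 303.2 in controls and 666.3, 631 and 915.1 in knockouts. All knockout arrays lay above all controls, with means of 368 ± 57.2 and 737 ± 155 (SD, n = 3 each). The log2 difference was 0.96 (SE 0.20; limma adjusted p = 0.105). Gtf2e2, the smaller TFIIE subunit, had signals of 358.1, 215.9 and 298.3 in controls and 677.8, 515.5 and 667.6 in knockouts, which did not overlap. Its log2 difference of 1.07 (SE 0.22; limma adjusted p = 0.104) was the highest of all members, while Taf1b, at -1.97, lay farther from 0. Gtf2e1, the larger TFIIE subunit, had signals of 151.2, 131.6 and 90.2 in controls and 328, 181 and 221.9 in knockouts, again without overlap (log2 0.87; SE 0.27; limma adjusted p = 0.210). A further Gtf2e1 probe set had signals under 10 on every array and gives no comparison.

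TFIIH carries the helicases and the kinase of initiation and also serves nucleotide excision repair. Of its 4 members measured, 2 had separate groups and 2 had overlapping ones, and differences between subunits were not tested. Among all genes 9.85% lay wholly above the controls, and 17.9% of those with a mean signal of 100 or more. Gtf2h5, the smallest subunit, which steadies the core and is mutated in a form of trichothiodystrophy, had signals of 548, 606.1 and 421.9 in controls and 1159.9, 1201.4 and 960.2 in knockouts. The lowest knockout array was well above the highest control, and the means were 525 ± 94.2 and 1107 ± 129 (SD, n = 3 each). With a log2 difference of 1.06 (SE 0.18; 95% interval 0.62 to 1.51) it had the lowest adjusted p of the members, 0.0761 in limma. Under a trended and robust variance prior it passed (adjusted p = 0.0451), as it did after median centring (adjusted p = 0.0308), which raised genes in general. No other setting brought it under 0.05, and with an offset of 1 the limma adjusted p was 0.215. Its other probe set was dim, running from 16.8 to 48.9 in controls and from 16.8 to 36.8 in knockouts, and a log2 difference of -0.09. Gtf2h1, a core subunit that TFIIE contacts, had signals of 154.2, 106.5 and 104.1 in controls and 227.5, 173.9 and 348.1 in knockouts (log2 0.92; SE 0.28; limma adjusted p = 0.206). Those groups did not overlap either. Gtf2h3, another core subunit, had signals of 136.1, 209.4 and 99.9 in controls and 209.4, 222.9 and 216.1 in knockouts (log2 0.55, or 0.33 without control replicate 3; limma adjusted p = 0.370). There 1 control array equalled the lowest knockout. Gtf2h4, the subunit that anchors the XPB helicase, had signals of 939.6, 572.4 and 582.9 in controls and 813.8, 465.4 and 788.7 in knockouts, fully overlapping, at a log2 difference of -0.02 (95% interval -0.76 to 0.71). That probe set carries the x suffix of probes that may bind related transcripts, and the other Gtf2h4 probe sets lay at -0.21 and 0.26, apart from 1 with signals under 10 on every array that gives no comparison.

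Other TFIIH subunits have symbols outside the pattern. Of the helicase genes Ercc2 and Ercc3 and the kinase genes Cdk7, Ccnh and Mnat1, 3 were higher and 2 lower, with a median log2 difference of 0.16, and none passed. Mnat1, which assembles the kinase trio, had signals of 162.2, 186 and 254.3 in controls and 125.8, 160.1 and 116 in knockouts (log2 -0.52; limma adjusted p = 0.308). Its knockout arrays all lay below the controls, the opposite of Gtf2h1 and Gtf2h5. Ercc2 was at 0.89 (limma adjusted p = 0.366), from control signals of 4.4 to 24.7 and knockout signals of 15.4 to 58.5, and Cdk7 was at 0.43 (limma adjusted p = 0.731). Ercc2 was at 0.59 without knockout replicate 2. Cdk7 was at 0.12 without control replicate 3 and at -0.02 without knockout replicate 1.

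**Figure D2:**
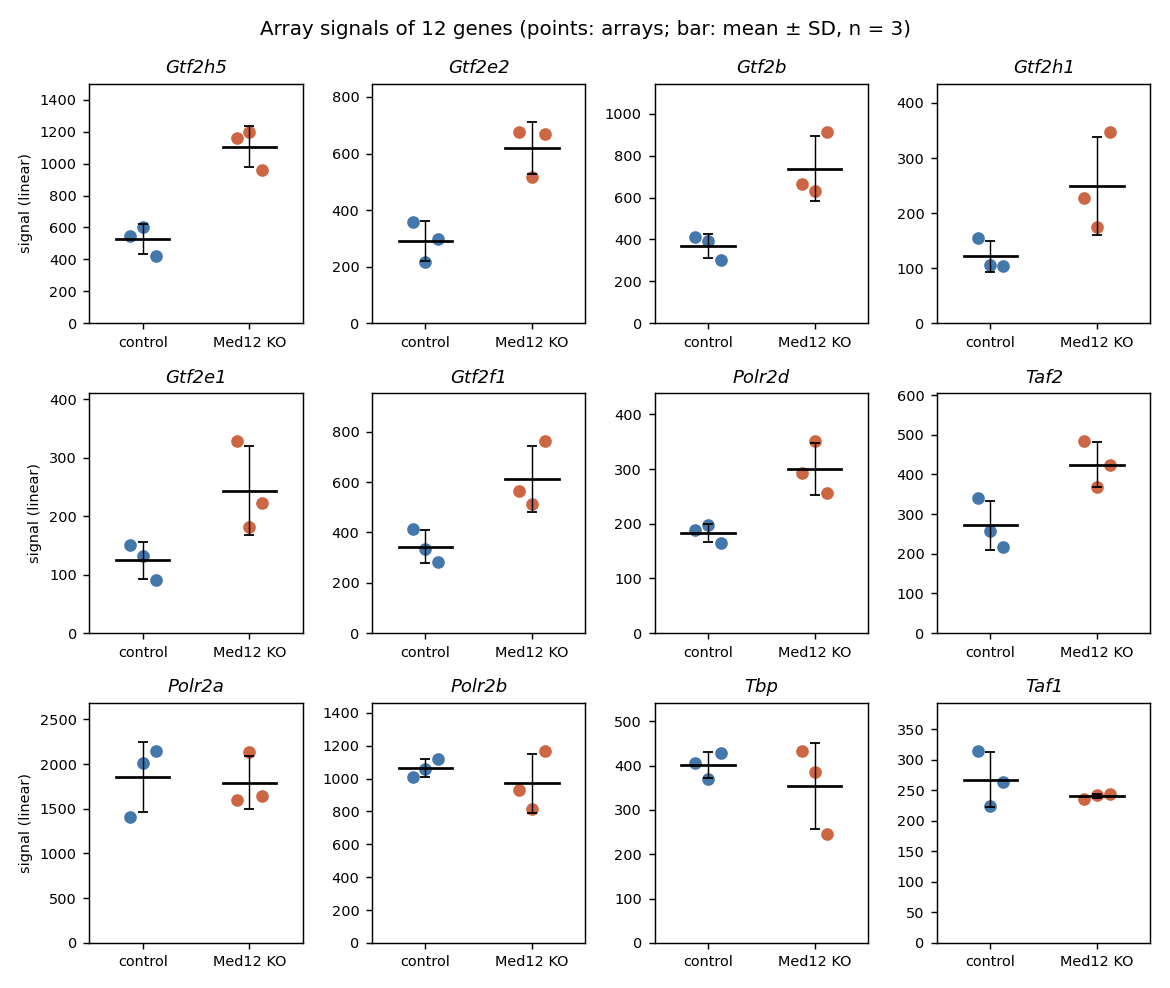
Signal (vertical axes, linear, from 0) of 12 genes on the 3 control and 3 Med12 knockout arrays, with 1 point per array and bars for the mean ± SD (n = 3). In Gtf2h5, Gtf2e2, Gtf2b, Gtf2h1, Gtf2e1, Gtf2f1, Polr2d and Taf2 the knockout points all lie above the control points, and in Polr2a, Polr2b, Tbp and Taf1 they overlap.

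The pair of TFIIF subunits, which act as 1 complex with the polymerase, gave unlike values, and the difference between them was not tested. Gtf2f1, the larger subunit, had signals of 413.5, 335.6 and 282.1 in controls and 564.4, 514.2 and 762.2 in knockouts, without overlap. The log2 difference was 0.80 (SE 0.21; limma adjusted p = 0.160). Its second probe set gave 0.28, with overlapping groups. Gtf2f2, the smaller subunit, had signals of 316.1, 228.7 and 243.5 in controls and 231.1, 230.8 and 224.3 in knockouts, at a log2 difference of -0.18 (95% interval -0.55 to 0.20) that turned to 0.10 after median centring. TFIIA was mixed in the same way. Gtf2a2, its small subunit, had signals of 1003.8, 816.6 and 626 in controls and 959.9, 1454.1 and 1445 in knockouts (log2 0.65; limma adjusted p = 0.293). Knockout 1 lay within the control range there. Gtf2a1, the precursor of the large subunits, ran from 418.8 to 499.5 in controls and from 349.2 to 631.9 in knockouts, at -0.01 (95% interval -0.57 to 0.56). Its dimmer probe sets lay at 0.52 and 0.71, and the last of these had groups that did not overlap, with control signals of 69.3 to 158.3 and knockout signals of 173.8 to 195.6. The germ cell paralog Gtf2a1l ran from 1.1 to 9.4 in controls and from 0.4 to 4.9 in knockouts.

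In RNA polymerase II itself the large subunits, which form the catalytic cleft, had overlapping groups, and some of the small ones did not. Polr2a, whose heptad-repeat tail binds Mediator, had signals of 1408.7, 2016.3 and 2144.5 in controls and 1596.8, 2132.9 and 1644.1 in knockouts. Those ranges overlap almost fully, at a log2 difference of -0.04 (95% interval -0.57 to 0.49). Its second probe set was at 0.08. Polr2b, the other wall of the cleft, had signals of 1012.2, 1058.3 and 1122 in controls and 933.6, 815.4 and 1166.7 in knockouts, at -0.14 (95% interval -0.55 to 0.26). After median centring Polr2a was at 0.23 and Polr2b at 0.13. Polr2e, shared by all 3 nuclear polymerases, was at -0.12, and Polr2j, of the assembly platform, was at -0.08. Polr2c, the partner of Polr2j, was at 0.31, with overlapping groups.

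Polr2d, part of the stalk that projects from the polymerase, had signals of 187.6, 197.5 and 163.8 in controls and 292.6, 350.6 and 256.4 in knockouts. The groups were separate, and the log2 difference was 0.66 (SE 0.16; limma adjusted p = 0.136), with an adjusted p of 0.0493 after median centring. It was not under 0.05 in any other setting. Its stalk partner Polr2g, chosen after its values were seen, had signals of 676.5, 534.5 and 851.5 in controls and 713.7, 770.8 and 2255 in knockouts. The last array alone carried most of that difference, which was 0.66 with it and 0.13 without it. Polr2f, a subunit common to the nuclear polymerases, had signals of 521.8, 449.2 and 345.5 in controls and 680.8, 652.3 and 565.5 in knockouts (log2 0.53; limma adjusted p = 0.253). Its dim second probe set, with signals of 5.7 to 50.6, was at -0.04. Polr2i, which acts in proofreading, ran from 513.9 to 606.2 in controls and from 659.1 to 788.9 in knockouts (log2 0.34; limma adjusted p = 0.313). Polr2h, also common to the nuclear polymerases, ran from 564.4 to 724.6 in controls and from 763.6 to 847.8 in knockouts (log2 0.30; limma adjusted p = 0.371). So 4 of the 10 core subunits measured, Polr2d, Polr2f, Polr2h and Polr2i, lay wholly above the controls, against 9.85% of all genes and 17.9% of those with a mean signal of 100 or more. A positive difference was found for 6 of the 10 (median 0.31), close to the 55.5% of genes that bright. Polr2m, the inhibitor known as Gdown1, which Mediator relieves, ran from 626.6 to 1025.2 in controls and from 681.9 to 761.4 in knockouts, at -0.10.

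Tbp, which bends the TATA box, had signals of 405.5, 370.3 and 429.3 in controls and 432.7, 385.1 and 246.2 in knockouts. Knockout 3 was the lowest array and the other knockout arrays lay close to the controls, for a log2 difference of -0.21 (95% interval -0.76 to 0.35). Without that array the difference was 0.02, and after median centring 0.07. The second, dim Tbp probe set gave -0.52, from 15.5 to 42.6 in controls and 5.8 to 23.6 in knockouts. Of the relatives and regulators of TBP, Drap1 was at 0.34 (0.19 without control replicate 2 and 0.17 without knockout replicate 2), Tbpl1 at 0.05 and Dr1 at -0.12, and none of the 4 measured passed.

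Among the TAFs of TFIID, 13 of the 15 measured had a positive log2 difference (against 42.2% of all genes and 55.5% of those with a mean signal of 100 or more), and the median was 0.29. The 13 include Taf7l, under 16 on every array, and Taf4 and Taf4b at 0.02. Of the 15, 5 lay wholly above the controls (against 9.85% and 17.9%) and 0 wholly below. Taf2, which reads the initiator element at the start site, had signals of 339.5, 258.2 and 216.4 in controls and 483.5, 368.6 and 422.9 in knockouts (log2 0.63; SE 0.20; limma adjusted p = 0.217). Its second probe set, with signals of 144.6 to 172 and 192.7 to 216.3, was separated in the same direction (log2 0.33). No other member with several probe sets at a mean of 16 or more in a group had all of them separate. Taf10, a histone-fold TAF shared with the SAGA coactivator, had signals of 1360.1, 1156.5 and 1595.7 in controls and 1722.3, 2054.8 and 2014.2 in knockouts (log2 0.50; SE 0.16; limma adjusted p = 0.234). Its second probe set went the other way, at -0.60, with control 3 at 314.9 and the other 5 arrays at 73.2 to 134.7. Taf12, a histone-fold partner of Taf4 and also a SAGA subunit, had signals of 228.1, 309.8 and 288.3 in controls and 443.9, 386.1 and 337.4 in knockouts (log2 0.48; limma adjusted p = 0.265). Taf3, whose PHD finger reads methylated histone tails at active promoters, had signals of 85.3 to 114.8 and 115.8 to 154.3 (log2 0.45; limma adjusted p = 0.277). The Taf3 groups were separate by a narrow margin. Taf13, which pairs with Taf11, had signals of 413.8 to 548.2 and 582.6 to 646.9 (log2 0.31, or 0.19 without control replicate 2; limma adjusted p = 0.388).

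Taf1, the scaffold and largest subunit of TFIID, had signals of 314.3, 224.5 and 263.2 in controls and 236.7, 242.5 and 243.8 in knockouts, at -0.13 (95% interval -0.50 to 0.24). It turned to 0.15 after median centring, and its second probe set lay at 0.33. Taf9b, a paralog of Taf9, was at 0.66 with 1 control array inside the knockout range (75.1 to 143.3 and 135 to 226.7). The remaining TFIID members, Taf4, Taf4b, Taf5, Taf6, Taf7, Taf7l, Taf8 and Taf11, lay between -0.10 and 0.32 with overlapping groups. Taf4 and its paralog Taf4b were both at 0.02, and the other Taf4b probe sets lay at -0.43 and -0.26. The germ cell paralog Taf7l ran from 1 to 4.6 in controls and from 0.2 to 5.4 in knockouts, and Taf7l2 had 1.8 to 6.3 and 0.5 to 4. With Gtf2a1l these make the 3 members that stayed under 16 on every array.

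**Figure D3:**
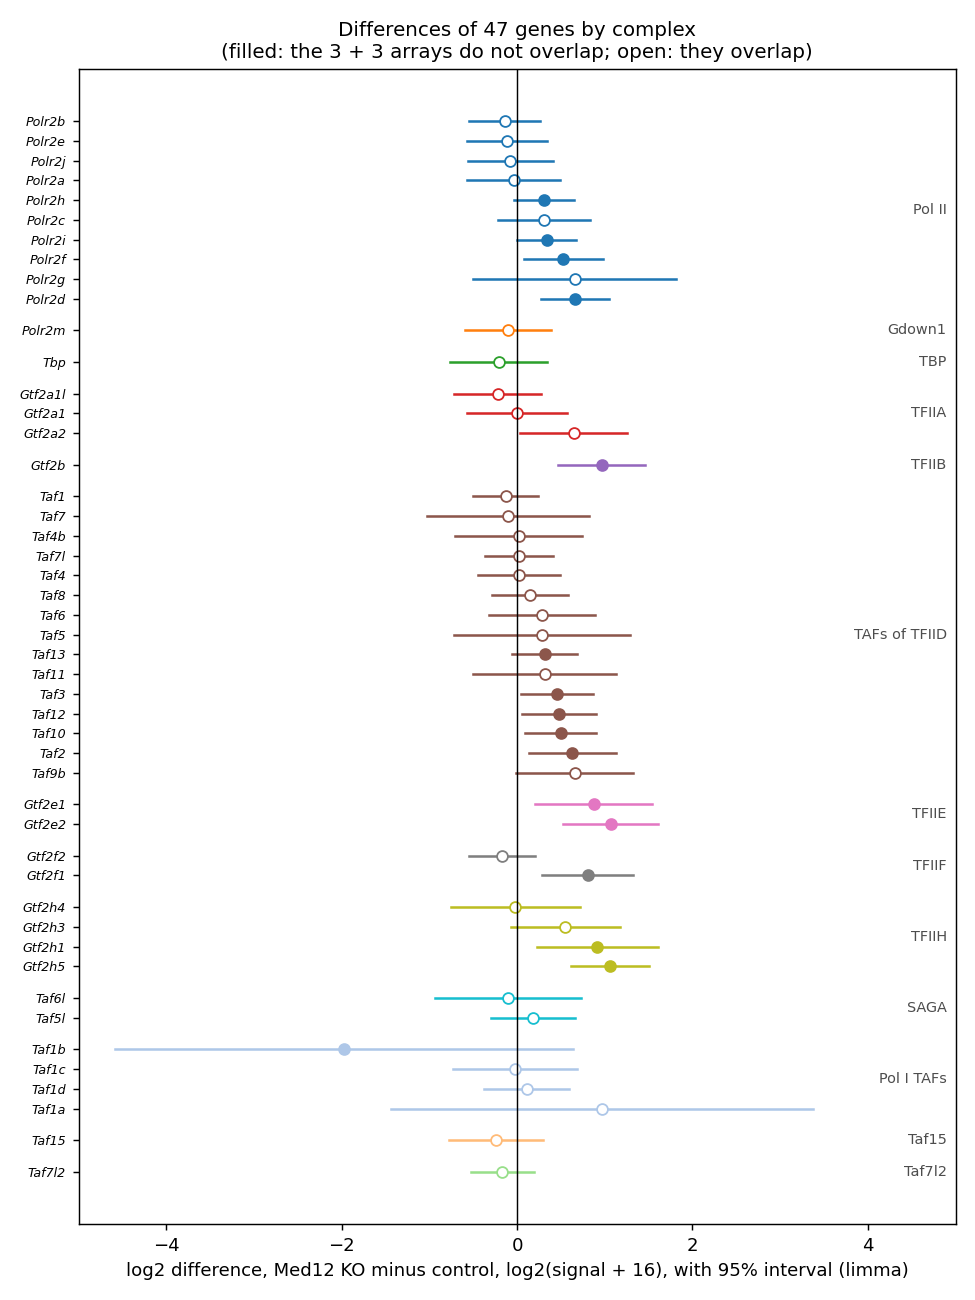
Log2 difference between Med12 knockouts and controls (horizontal axis, log2(signal + 16)) with limma's 95% interval for each of the 47 genes, grouped by complex, with filled points where the 3 + 3 arrays do not overlap. TFIIB, both TFIIE subunits, Gtf2f1, Gtf2h1 and Gtf2h5 lie between 0.80 and 1.07, while Polr2a, Polr2b, Tbp and Taf1 lie between -0.21 and -0.04. The TFIIA genes, Gtf2f2, Gtf2h3 and Gtf2h4 lie between -0.22 and 0.65, with open points.

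Members that carry a Taf name but work outside TFIID showed no common direction. The factors Taf1a, Taf1b, Taf1c and Taf1d form the selectivity complex of RNA polymerase I, which copies ribosomal RNA genes. Taf1b had signals of 219, 228.5 and 3420 in controls and 103.7, 174.7 and 127 in knockouts. The groups did not overlap, but control 3 stood far above every other array: the log2 difference was -1.97 (SE 1.07; limma adjusted p = 0.447) with that array and -0.69 without it. Taf1a had signals of 153.4, 192.4 and 128.7 in controls and 171.2, 103.8 and 1682.3 in knockouts. Here knockout 3 stood apart, and the difference was 0.97 with it and -0.20 without it. Taf1c was at -0.02 and Taf1d at 0.11, and the 7 Taf1d probe sets ran from -0.27 to 0.26. The SAGA subunits Taf5l and Taf6l, paralogs of Taf5 and Taf6, were at 0.18 and -0.10, and Taf6l turned positive after median centring (0.17), quantile (0.13) and loess (0.12) normalization. Taf15, which encodes an RNA-binding protein, was at -0.24, or 0.03 after median centring.

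**Figure D4:**
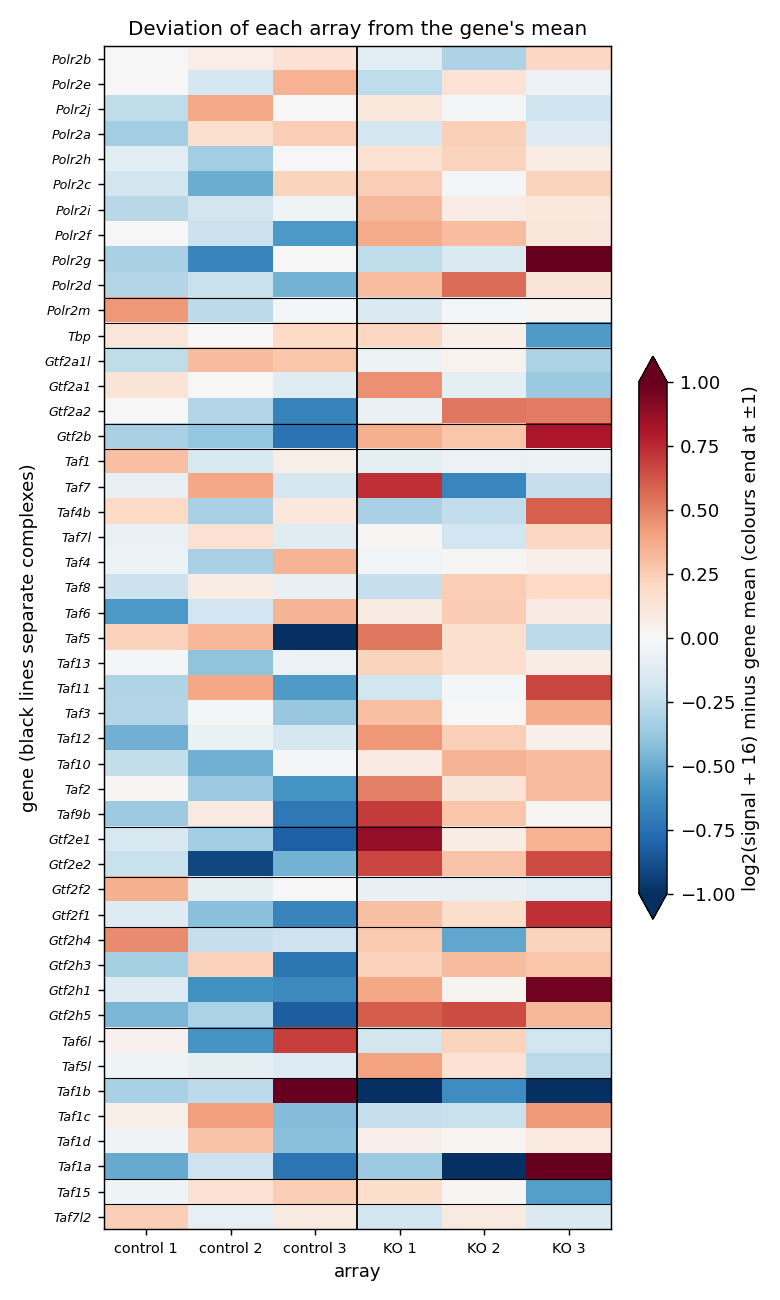
Deviation of each array from the gene's own mean (colour, log2(signal + 16), with colours ending at ±1) for the 47 genes (rows, grouped by complex) on the 6 arrays (columns). The TFIIE, Gtf2b, Gtf2h1 and Gtf2h5 rows lie below the gene's mean in all controls and above it in all knockouts. Knockout 2 is only slightly above it, and nearly white, in Gtf2h1 and Gtf2e1. The cells past the upper end of the colours are control 3 in Taf1b and knockout 3 in Taf1a and Polr2g.

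Probe sets of 1 gene did not always give the same answer. Of the 16 members with several probe sets that reached a mean of 16 in a group, 5 had differences of a single sign. In Gtf2a1, Gtf2h5, Polr2f and Taf10 the signs differed while 1 probe set had an unadjusted p under 0.05. Taken by probe set, 18 of the 77 lay wholly above the controls (23.4%, against 7.61% of all probe sets), and the median over the 77 was 0.14.

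Other genes of the transcription machinery, from lists outside the pattern, had medians closer to 0 and no calls. The median was 0.11 over 11 genes of pausing and P-TEFb, 0.05 over 17 elongation genes, 0.06 over 13 genes for phosphatases of the polymerase tail and for polymerase assembly, 0.11 over 8 RNA polymerase I subunits and 0.02 over 13 genes of RNA polymerase III and TFIIIB. The difference between these medians and that of the 47 genes was not tested. The elongation list, with 10 higher and 7 lower, held the widest contrast. Ell2, an elongation factor of the super elongation complex, had signals of 260.1, 321.8 and 150 in controls and 722.8, 599.5 and 801.9 in knockouts (log2 1.53; SE 0.29; limma adjusted p = 0.0915). Aff4, the scaffold of the same complex, had signals of 508.4, 444.8 and 412.3 in controls and 298.2, 226.2 and 239.8 in knockouts (log2 -0.80; SE 0.16; limma adjusted p = 0.0955). Both pairs of groups were separate, in opposite directions. Cdc73, of the PAF complex, was at 0.51 (limma adjusted p = 0.180), wholly above the controls.

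Among the pausing genes 6 were higher and 5 lower. Those of lowest unadjusted p were Nelfe at 0.55 (limma adjusted p = 0.277), Supt5 at 0.27 (0.16 without knockout replicate 3) and Larp7, of the particle that holds P-TEFb inactive, at 0.36 (0.14 without control replicate 1). Rpap3 and Gpn2, which help assemble the polymerase in the cytoplasm, were at 0.88 and 0.75, and the tail phosphatase gene Ctdsp2 at -0.65 (limma adjusted p = 0.306; -0.39 without control replicate 2), on a list with 8 higher and 5 lower. Of the RNA polymerase I genes 4 were higher and 4 lower, and those of lowest unadjusted p were Polr1e at 0.95 (limma adjusted p = 0.146), Polr1b at 0.65 (0.33 without control replicate 3) and Polr1d, which RNA polymerase III shares, at 0.28 (0.17 without control replicate 1 and 0.16 without knockout replicate 2). Of those of RNA polymerase III and TFIIIB 7 were higher and 6 lower, and the lowest unadjusted p belonged to Polr3e at 0.62, Polr3k at 0.37 and Crcp at 0.66. The lowest values on the RNA polymerase I and III lists, chosen after they were seen, were -0.31 for Znrd1 and -0.39 for Polr3c.

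**Figure D5:**
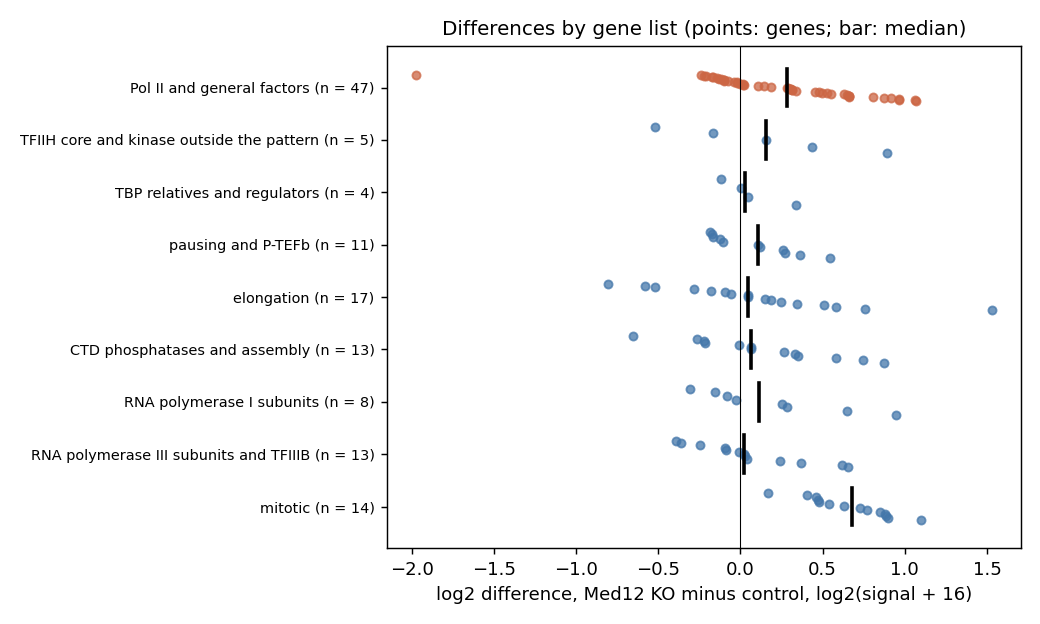
Log2 difference between Med12 knockouts and controls (horizontal axis, log2(signal + 16)) for the 47 genes and for the genes of 8 other lists (rows), with 1 point per gene and a bar at the median. Medians run from 0.02 to 0.29 over the transcription lists and reach 0.68 in the mitotic list.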

How the data were processed

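The authors deposited 1 linear signal intensity per probe set for each of 6 arrays (5 ng of RNA amplified with the NuGEN Ovation system, per the labels' protocols). No version is given for RMA, the tool in the submitters' processing notes. RMA gives log2 values and no zeros, whereas these run from 0 to 11133.8 with a mean of 150 on every array after leaving out 2% at each end, so the method is not known here. Every value column was used. Of 45101 probe sets 64 controls were dropped. The platform annotation of 2016 gave 34945 of the rest 1 symbol, 932 several and 9160 none, and Entrez numbers of all 47 members matched RefSeq (GRCm38.p6).

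Values were taken as log2(signal + 16) and fitted over all 45037 probe sets with limma 3.58.1 (lmFit, eBayes; R 4.3.3). Tests were two-sided, with 4 residual degrees of freedom and 1.96 from the prior, and p was adjusted by Benjamini-Hochberg over all probe sets and a threshold of 0.05. Adjusted p values and intervals in the text are from this fit. Means and SDs are of deposited signals. The fit was tested on simulated data. The number of arrays limits the precision. Named genes were, per complex, the 4 of lowest unadjusted p, with Polr2a, Polr2b, Tbp, Gtf2b and Taf1, those separated on or split between probe sets, and 3 per other list. Other members, such as Polr2c, Polr2e, Polr2j and Taf9b, fall outside these rules and were named after their values were seen. Members and lists were chosen with earlier results of these data known. Alternatives were other offsets and a floor, median centring, quantile and loess normalization, filters on dim probe sets, other priors, array weights, a replicate block, a looser threshold, a plain equal-variance test and leaving out each array. Scaling and left-out arrays for the count of separated genes were chosen after seeing the data.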

Additional observations from a re-analysis of the deposited data

How the results depend on the processing

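Members passing limma's threshold numbered 0 under most settings, including each left-out array (0 to 0). The exceptions were 2 after median centring (Gtf2h5 and Polr2d), 1 with the trended and robust prior and 1 at an adjusted p under 0.10 (Gtf2h5 in both). Over all probe sets the count of 343 became 42 with an offset of 1, 84 with a floor at 16, 693 after median centring, 712 without the dimmest 25%, 763 without the dimmer 50%, 1159 at an adjusted p under 0.10, 1 with the plain equal-variance test and 0 to 10 without single arrays. The replicate numbers did not pair the arrays (correlations of deviations of 0.0190, 0.0193 and 0.00193), and with the replicate block 0 probe sets passed in limma, members included, although 6752 probe sets and 11 member genes had an unadjusted p under 0.05.

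The median over members of 0.29 was 0.24 with an offset of 64, 0.56 after median centring, 0.24 after quantile and 0.23 after loess normalization, 0.21 with array weights, 0.24 with probe sets averaged per gene and 0.14 over all member probe sets. Without single arrays it ran from 0.13 to 0.26. Its distance to the median of all genes was 0.34 in the main setting and 0.18 without knockout replicate 3. The 15 genes wholly above the controls were 19 after median centring, 16 after quantile and loess normalization, 13 with probe sets averaged per gene and 16 to 19 without single arrays, where fewer arrays have to be separated. The share over all genes, 9.85%, was then 27.6%, 12.2% (quantile), 11.1% (loess) and 13.2% to 14.7% (single arrays left out).

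Genes near 0 changed sign. After median centring, which moved the median of all genes from -0.05 to 0.22, the values were 0.27 for Gtf2a1, 0.051 for Gtf2a1l, 0.10 for Gtf2f2, 0.25 for Gtf2h4, 0.23 for Polr2a, 0.13 for Polr2b, 0.17 for Polr2m, 0.15 for Taf1, 0.035 for Taf15, 0.26 for Taf1c, 0.17 for Taf6l, 0.11 for Taf7l2, 0.067 for Tbp and 0.16 for Dr1. Quantile and loess normalization turned Taf1c (0.050 and 0.020) and Taf6l (0.13 and 0.12), loess turned Tbpl1 (-0.023), and array weights turned Gtf2a1 (0.011). Without single arrays the ranges crossed 0 for Gtf2a1 (-0.23 to 0.18), Gtf2h4 (-0.16 to 0.23), Polr2a (-0.23 to 0.075), Polr2m (-0.26 to 0.089), Taf1a (-0.20 to 1.71), Taf1c (-0.24 to 0.18), Taf1d (-0.072 to 0.28), Taf6l (-0.42 to 0.22), Tbp (-0.36 to 0.025), Cdk7 (-0.020 to 0.68) and Tbpl1 (-0.12 to 0.18). The cause was not tested. Signals under 16 limit what can be read from Gtf2a1l, Taf7l and Taf7l2.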
